A study of Mus musculus with 12 samples.

Results

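The subject here is the amino acid carrier genes of RAW 264.7 cells, a macrophage-like line derived from a mouse tumour. They were chosen by gene symbol from the Slc1, Slc3, Slc6, Slc7, Slc36, Slc38 and Slc43 families, with 1 probe set per gene, and 62 of the 19505 genes on the array carried such a symbol. Of these, 61 are named as carriers or carrier subunits, and Slc7a6os is a gene on the strand opposite Slc7a6 that shares its name only. RNA was measured on 12 Affymetrix arrays in 4 groups of 3, all given lipopolysaccharide (LPS, a bacterial outer membrane component that activates macrophages) at 500 ng/mL and kept for 6 h. The groups were LPS alone, LPS with TsSP at 50 µg/mL, LPS with inulin (a fructose polymer from plants) at 500 µg/mL, and LPS with both. The series describes helminth products, and TsSP is written as the labels have it. No array without LPS was analysed here, so every comparison is within LPS-treated cells of a single cell line.

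Amino acid carriers move amino acids across the cell surface and the membranes of lysosomes. Some are exchangers that trade an internal for an external amino acid, some are driven by sodium or protons, and the light chains of the Slc7 family reach the surface bound to the heavy chain 4F2hc, which Slc3a2 encodes. In macrophages they supply cystine for glutathione, arginine for nitric oxide and leucine for the mTORC1 growth pathway, and several are known targets of ATF4, the transcription factor of the amino acid stress response.

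With TsSP, Slc7a11, Slc43a2, Slc36a1 and Slc38a10 rose, and Slc1a4, Slc7a1 and Slc7a5 fell, both in cells given LPS alone and in cells also given inulin. The changes ran from a rise of 2.12-fold for Slc43a2 to a fall of 2.96-fold for Slc1a4. Slc36a4 and Slc7a7 passed as higher only in the comparison with LPS alone, and Slc38a2 passed as lower only in the comparison within inulin. Their differences had the same sign in the other comparison, and no interaction passed. With 1 array left out, these calls were lost in 4, 11 and 11 of 12 fits, in that order. Inulin changed no carrier past the threshold.

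Of the 62 genes, 26 lay above the array background on all 12 arrays, and 36 lay below it on all 12. Background was the brightest of 23 background probes on each array, at a log2 signal of 6.158 to 6.283. The 7 families differed in how many members were measurable. In Slc7, 8 of 16 symbols were above background (Slc7a1, Slc7a2, Slc7a5, Slc7a6, Slc7a6os, Slc7a7, Slc7a8 and Slc7a11), and in Slc38, 6 of 11 (Slc38a1, Slc38a2, Slc38a6, Slc38a7, Slc38a9 and Slc38a10). Slc6 had 5 of 19 (Slc6a6, Slc6a8, Slc6a9, Slc6a12 and Slc6a17), Slc1 had 2 of 7 (Slc1a4 and Slc1a5), and Slc36 had 2 of 4 (Slc36a1 and Slc36a4). Slc43 had 2 of 3 (Slc43a2 and Slc43a3), and Slc3 had 1 of 2 (Slc3a2).

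The arrays were alike in scale, with median log2 signals of 5.163 to 5.3 and correlations across genes of 0.9928 to 0.9951 within groups. Of 8 macrophage markers listed, 7 were measured, and all 7 lay above background on every array. All measured T cell, B cell, epithelial and neutrophil markers were below background on every array, and of the fibroblast markers Col1a1 alone lay above it, on 1 array. Whether replicate arrays represent independent cultures is not stated in the labels, and the p-values therefore reflect spread among these arrays only, which may be technical. Each array read RNA from many cells, so fewer cells with a transcript and less transcript per cell cannot be told apart.

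Differences below are in mean log2 signal, folds are 2 to that power, and p-values come from limma over all 19505 genes with Benjamini-Hochberg adjustment and a threshold of 0.05. In TsSP against LPS alone, 11 of the 62 genes passed, 7 higher and 4 lower, or 17.7% of them, where 18.1% of all genes passed (11.0% higher and 7.08% lower). In TsSP added to inulin 9 passed, 4 higher and 5 lower, where 16.7% of all genes passed (8.66% higher and 7.99% lower). In the comparison of both agents with LPS alone 8 passed, 4 in each direction, where 17.6% of all genes did (10.3% higher and 7.30% lower). At an unadjusted p under 0.05 the counts were 16, 20 and 14 in that order, where 28.7%, 27.4% and 28.6% of all genes passed. For the adjusted calls, the members' shares of 17.7%, 14.5% and 12.9% were no higher than the background of all genes. The F test over the 4 groups called 9 of the 62, where 18.7% of all genes passed. The median difference with TsSP was -0.069 over the 26 genes above background and 0.11 over the 9022 genes of the whole array above background. The set held 10 genes above background that passed in at least 1 TsSP comparison, 6 higher and 4 lower. The matching share of all genes, or of the 9022 above background, was not counted, so the 10 have no background beside them. In each of the 10 all 6 arrays with TsSP lay on one side of all 6 without it. These genes were picked for passing a TsSP test, so that separation is no further support. Among all 62 genes 11 were so separated (17.7%), the 10 and Slc43a3, where 18.0% of all genes were. All 11 were among the 26 members above background, and of the 9022 genes above background 37.4% were so separated.

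**Figure D1:**
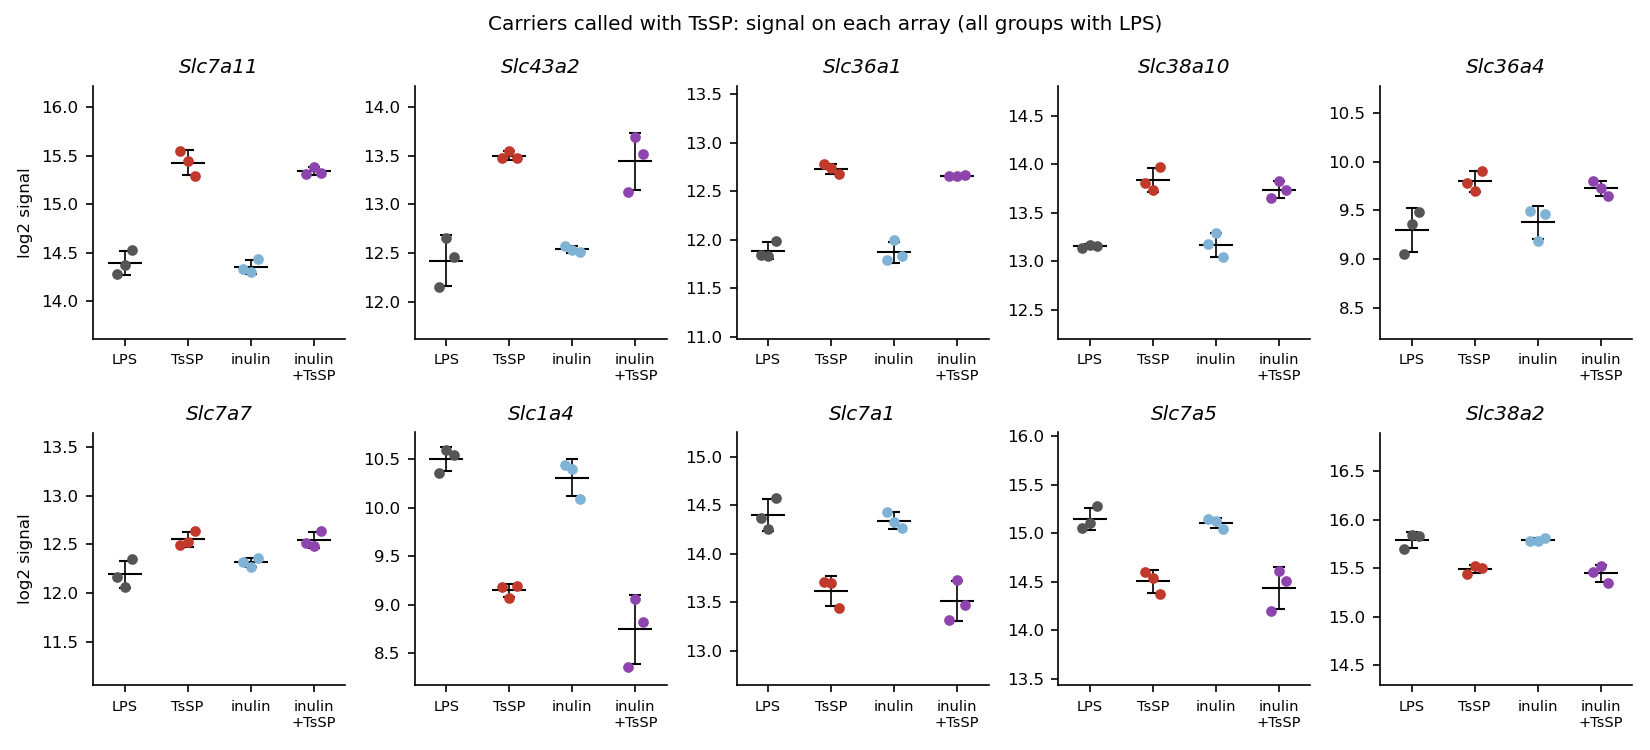
Log2 signal (vertical axis) of the 10 carriers that passed in a TsSP comparison, by treatment group (horizontal axis). Points are single arrays, the wide bar is the group mean and the whiskers are 1 SD (n = 3); every panel spans the same number of log2 units from a different starting level, and the 6 arrays with TsSP lie wholly above or wholly below the 6 without in these genes, which were picked for passing, as they do in 37.4% of all genes above background.

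Promoter sequence was read for the genes that changed, because several are known ATF4 or NRF2 targets and their transcripts moved in opposite directions. The RefSeq table for GRCm38.p6 held promoter windows for 45 of the 62 genes. Each stretch below runs 5′ to 3′ on the gene's own strand, from 150 bases before the annotated start to 10 after it, with motif matches in capitals. No stretch is shown for Slc36a4 and Slc43a2, whose windows held none of the motifs described below. None is shown either for Slc38a10, which held only the hypoxia core, or for Slc7a5, which had no window. Slc7a1 has a second annotated start whose window held none of the motifs, and Slc7a7 has further starts, of which the one shown holds 2 matches.
Slc7a11, chr3:50443604-50443763, minus strand: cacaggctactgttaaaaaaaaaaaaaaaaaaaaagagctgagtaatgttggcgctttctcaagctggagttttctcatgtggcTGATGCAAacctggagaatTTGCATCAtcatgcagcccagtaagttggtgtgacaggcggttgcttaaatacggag
Slc1a4, chr11:20332704-20332863, minus strand: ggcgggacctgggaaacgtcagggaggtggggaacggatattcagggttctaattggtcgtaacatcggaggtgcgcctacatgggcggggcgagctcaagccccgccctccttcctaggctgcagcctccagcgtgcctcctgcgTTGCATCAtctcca
Slc7a7, chr14:54417935-54418094, minus strand: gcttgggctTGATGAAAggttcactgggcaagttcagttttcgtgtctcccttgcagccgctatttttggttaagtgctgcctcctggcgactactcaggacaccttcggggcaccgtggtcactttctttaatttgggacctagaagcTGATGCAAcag
Slc36a1, chr11:55204190-55204349, plus strand: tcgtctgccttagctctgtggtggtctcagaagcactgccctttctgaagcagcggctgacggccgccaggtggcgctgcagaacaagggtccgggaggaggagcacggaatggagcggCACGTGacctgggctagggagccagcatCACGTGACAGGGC
Slc7a1, chr5:148399895-148400054, minus strand: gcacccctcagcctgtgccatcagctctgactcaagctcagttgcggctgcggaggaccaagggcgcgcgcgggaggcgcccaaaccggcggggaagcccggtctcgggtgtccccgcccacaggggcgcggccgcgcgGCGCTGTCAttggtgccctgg
Slc38a2, chr15:96699719-96699878, minus strand: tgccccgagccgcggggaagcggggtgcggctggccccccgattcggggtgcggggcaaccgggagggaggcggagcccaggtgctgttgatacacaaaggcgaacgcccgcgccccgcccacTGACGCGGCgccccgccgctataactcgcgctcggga

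The motifs were searched on both strands. The composite element of C/EBP and ATF factors (TGATGNAA) stood in Slc7a11 at 66 bases before the start and, on the other strand, at 47 bases before it. It stood in Slc7a7 at 141 bases and at 1 base before the start shown, and in Slc1a4 at 4 bases before the start on the other strand. Slc7a11 and Slc7a7 are among the 6 genes higher with TsSP and Slc1a4 among the 4 lower, so the letters of this element were present in genes of either direction. It was found in 3.97% of all 32851 windows of 300 bases and in 4 of the 45 genes. The antioxidant response element core (TGACNNNGC, in 12.4% of windows) stood in Slc38a2, Slc7a1 and Slc36a1, and the E-box (CACGTG, in 7.15%) stood in Slc36a1 at 31 and 3 bases before the start. The latter copy overlaps the antioxidant core there. The hypoxia response element core (ACGTG, in 19.6%) lies within every E-box. It stood in 3 of the 6 higher genes, Slc36a1, Slc38a10 and Slc7a7, and in none of the 3 lower genes that have a window. Of the 45 genes with windows 16 held it, and the split by direction was not tested. In Slc7a7 it lay at bases 11 and 34 after starts that are not shown. A gene is counted when any of its windows matches, so gene counts are not comparable with the share of windows. A match describes these letters only and was not tested as a binding site.

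Slc7a11 encodes the light chain of the cystine and glutamate exchanger, which brings in cystine for glutathione. Its log2 signal was 14.28, 14.38 and 14.53 on the LPS arrays and 15.55, 15.44 and 15.29 with TsSP. With inulin it was 14.33, 14.30 and 14.43, and with both agents 15.31, 15.38 and 15.32. The arrays with TsSP were all higher, and those with and without inulin overlapped. The rise was 2.04-fold against LPS alone (difference 1.03, SE 0.12, limma adjusted p = 7.54e-05) and 1.98-fold within inulin (0.98, limma adjusted p = 0.00011).

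Slc7a5 encodes the light chain of the main leucine and large neutral amino acid exchanger. Its log2 signal was 15.06, 15.10 and 15.27 with LPS alone and 14.60, 14.54 and 14.37 with TsSP, and 15.15, 15.12 and 15.04 with inulin and 14.20, 14.61 and 14.50 with both. Every TsSP array was lower than every array without it. The fall was 1.56-fold against LPS alone (difference -0.64, SE 0.13, limma adjusted p = 0.00541) and 1.59-fold within inulin (-0.67, limma adjusted p = 0.00454).

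The heavy chain gene Slc3a2 gave 17.12, 17.04 and 17.09 with LPS alone and 16.93, 17.02 and 16.95 with TsSP, and 17.14, 17.17 and 17.20 with inulin and 16.89, 17.07 and 17.04 with both. TsSP arrays were lower without overlap in both comparisons. The differences of -0.11 against LPS alone (95% interval -0.34 to 0.11, limma adjusted p = 0.535) and -0.17 within inulin (-0.40 to 0.053, limma adjusted p = 0.325) did not pass; with a mean-variance trend the latter did (adjusted p = 0.0243). Slc7a8, the light chain of a second neutral amino acid exchanger, differed by -0.23 (95% interval -0.47 to 0.0021, limma adjusted p = 0.179). Its TsSP arrays were also lower without overlap in both comparisons. With a mean-variance trend it passed against LPS alone (limma adjusted p = 0.00517) and within inulin (0.0447), and with genes above background only it passed against LPS alone (0.0443).

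The other measurable light chains serve exchangers that release cationic amino acids such as arginine in return for neutral ones. Slc7a7 gave 12.16, 12.07 and 12.35 with LPS alone and 12.49, 12.53 and 12.64 with TsSP, and 12.32, 12.27 and 12.36 with inulin and 12.52, 12.49 and 12.63 with both. The groups did not overlap, and the rise of 1.28-fold against LPS alone (difference 0.36, SE 0.11) was close to the threshold at a limma adjusted p of 0.0468. It was 0.23 within inulin (limma adjusted p = 0.222). The call was lost in 11 of the 12 fits that left out 1 array, with adjusted p up to 0.152 without TsSP replicate 3. It was also lost after quantile normalization (0.0785), centring on array medians (0.083), array weights (0.0591) and the replicate block (0.0526). Slc7a6 differed by 0.43 against LPS alone (95% interval 0.11 to 0.75, limma adjusted p = 0.0626), with values of 10.99 to 11.32 on the LPS arrays and 11.35 to 11.70 on the TsSP arrays.

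Because light chains share 1 heavy chain, each was set against Slc3a2 on the same array, which removes any shift common to an array. The change of the log2 ratio with TsSP, over 6 arrays with and 6 without, was 1.15 for Slc7a11, a 2.22-fold rise of the ratio, and -0.51 for Slc7a5, a 1.42-fold fall. It was 0.44 for Slc7a7 and 0.56 for Slc7a6. Each of these gave the smallest value that the exact two-sided permutation test within inulin state allows (p = 0.005 of 400 permutations, adjusted p = 0.00643 over 9 ratios, n = 6 per side). For Slc7a8 the change was -0.06 (exact permutation p = 0.26). The 6 arrays with TsSP did not overlap the 6 without for Slc7a11, Slc7a5 and Slc7a7, and they did for Slc7a6 and Slc7a8. Within each inulin state the groups did not overlap for Slc7a6 either, and they overlapped for Slc7a8. All 9 ratios, here and below, were chosen after the values had been seen. Most hold a gene picked for passing a TsSP test, so their p-values are no further support. The ratios show unequal change of transcripts, not amounts of protein.

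**Figure D2:**
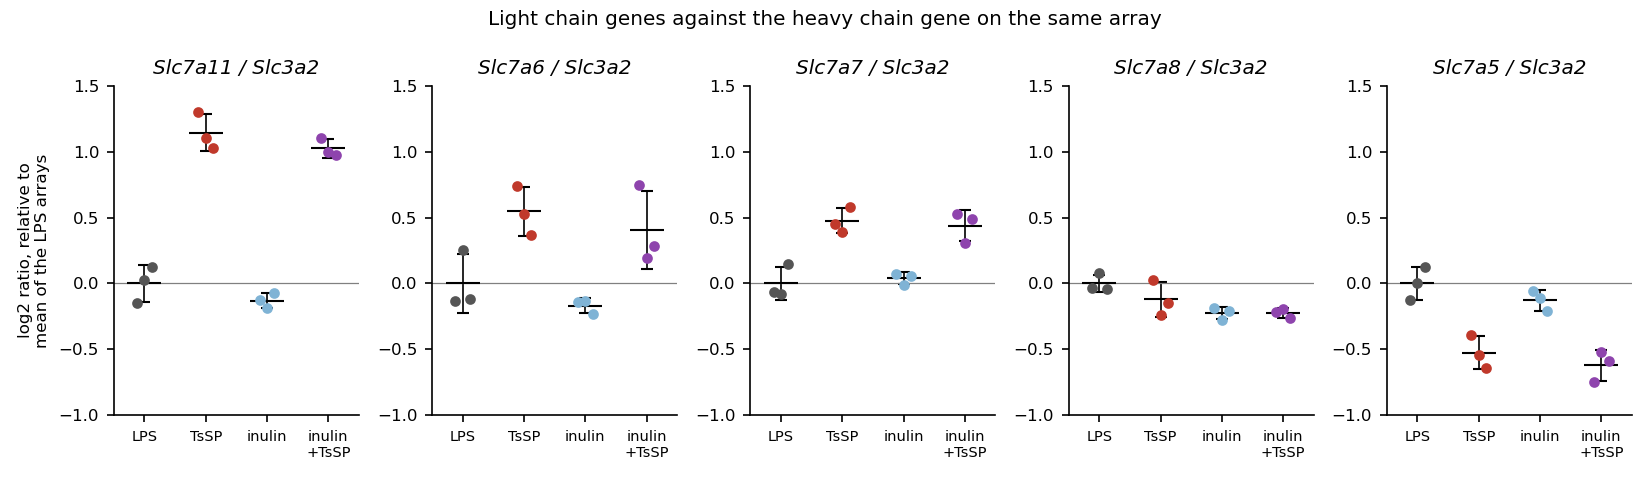
Log2 ratio of each light chain gene to Slc3a2 on the same array, relative to the mean of the LPS arrays (vertical axis), by treatment group (horizontal axis). Points are arrays, wide bars means and whiskers 1 SD (n = 3); Slc7a11 shifts up by 1.15 and Slc7a5 down by 0.51 with TsSP, while Slc7a8 changes by -0.06 with overlapping groups.

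Slc7a1 encodes the widely expressed carrier of arginine, lysine and ornithine, which works without a heavy chain. Its log2 signal was 14.37, 14.25 and 14.58 with LPS alone and 13.71, 13.70 and 13.44 with TsSP, and 14.43, 14.33 and 14.27 with inulin and 13.32, 13.73 and 13.48 with both. All TsSP arrays were lower. The fall was 1.72-fold against LPS alone (difference -0.78, SE 0.14, limma adjusted p = 0.00246) and 1.78-fold within inulin (limma adjusted p = 0.00174). Slc7a2, the related carrier known for supplying arginine to inducible nitric oxide synthase, gave 15.26, 15.14 and 15.38 with LPS alone and 15.22, 15.09 and 14.95 with TsSP. These overlapped, with a difference of -0.17 (95% interval -0.51 to 0.17, limma adjusted p = 0.538). The ratio of Slc7a1 to Slc7a2 fell by 0.61 on the log2 scale (exact permutation p = 0.005, adjusted p = 0.00643, n = 6 per side). It was chosen with the fall of Slc7a1 known, so its p-value is no further support.

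Slc1a4 encodes a sodium-dependent exchanger of alanine, serine and cysteine, and had the largest fall among the 62 genes in both TsSP comparisons. Its log2 signal was 10.36, 10.59 and 10.54 with LPS alone and 9.18, 9.07 and 9.19 with TsSP, and 10.44, 10.40 and 10.09 with inulin and 8.36, 9.06 and 8.82 with both. Every TsSP array lay below every array without it, and the 3 arrays with both agents also lay below the 3 with TsSP. The fall was 2.55-fold against LPS alone (difference -1.35, SE 0.17, limma adjusted p = 0.000224) and 2.96-fold within inulin (difference -1.56, limma adjusted p = 7.36e-05). The further difference when inulin was added to TsSP was -0.40, with a limma adjusted p of 0.981.

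Slc1a5, the sister gene that encodes a glutamine exchanger, gave 12.96, 13.10 and 13.06 with LPS alone and 13.21, 13.19 and 13.10 with TsSP. The TsSP arrays were all higher, by little at the nearest pair, and the difference of 0.12 (95% interval -0.12 to 0.36, limma adjusted p = 0.526) did not pass. Within inulin the arrays overlapped and the difference had the other sign, at -0.09 (limma adjusted p = 0.673). The ratio of Slc1a4 to Slc1a5 fell by 1.47 on the log2 scale, or 2.78-fold (exact permutation p = 0.005, adjusted p = 0.00643, n = 6 per side). That ratio was chosen with the fall of Slc1a4 known, so its p-value is no further support.

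The Slc38 genes encode sodium-coupled carriers of glutamine and other small neutral amino acids, some at the cell surface and some in lysosomes. Slc38a2, whose product is a surface carrier known to rise when amino acids are scarce, gave 15.70, 15.84 and 15.83 with LPS alone and 15.44, 15.53 and 15.50 with TsSP, and 15.78, 15.77 and 15.81 with inulin and 15.46, 15.53 and 15.35 with both. The TsSP arrays were lower without overlap. The difference was -0.30 against LPS alone (limma adjusted p = 0.071) and -0.34 within inulin, a fall of 1.27-fold (limma adjusted p = 0.0423). The call within inulin was lost in 11 of 12 fits with 1 array left out, with adjusted p up to 0.145 without replicate 3 of both agents, and with the replicate block (0.074). Against LPS alone, Slc38a2 passed after quantile normalization (limma adjusted p = 0.0463) and centring on array medians (0.0396). It also passed there with genes above background only (0.0104) and with a mean-variance trend (0.000766), but in no other planned setting and in no fit with 1 array left out.

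Slc38a10 gave 13.13, 13.17 and 13.16 with LPS alone and 13.81, 13.74 and 13.97 with TsSP, and 13.18, 13.29 and 13.04 with inulin and 13.65, 13.83 and 13.73 with both. All TsSP arrays were higher. The rise was 1.60-fold against LPS alone (difference 0.68, SE 0.12, limma adjusted p = 0.00145) and 1.48-fold within inulin (limma adjusted p = 0.00487).

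The remaining Slc38 genes above background did not pass. Slc38a1, a glutamine carrier of the cell surface, differed by 0.12 (95% interval -0.11 to 0.36, limma adjusted p = 0.517). The ratio of Slc38a2 to Slc38a1 fell by 0.45 on the log2 scale (exact permutation p = 0.005, adjusted p = 0.00643, n = 6 per side). That ratio was chosen with the fall of Slc38a2 known, so its p-value is no further support. Slc38a9, the lysosomal arginine sensor of mTORC1, differed by -0.024 (95% interval -0.31 to 0.26, limma adjusted p = 0.937). Slc38a7, which exports glutamine from lysosomes, differed by -0.36 against LPS alone (limma adjusted p = 0.142) and -0.46 within inulin (limma adjusted p = 0.0624). Slc38a6 differed by 0.12 (limma adjusted p = 0.654).

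Slc36a1 encodes a proton-coupled carrier that exports small neutral amino acids from lysosomes. Its log2 signal was 11.84, 11.84 and 11.99 with LPS alone and 12.78, 12.74 and 12.68 with TsSP, and 11.79, 12.00 and 11.83 with inulin and 12.66, 12.66 and 12.67 with both. The TsSP arrays were all higher, and the 3 with both agents were slightly below the 3 with TsSP. The rise was 1.79-fold against LPS alone (difference 0.84, SE 0.11, limma adjusted p = 0.000197) and 1.73-fold within inulin (limma adjusted p = 0.000314).

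Slc36a4, a related carrier, gave 9.05, 9.36 and 9.48 with LPS alone and 9.79, 9.70 and 9.91 with TsSP, and 9.50, 9.18 and 9.46 with inulin and 9.80, 9.74 and 9.64 with both. The TsSP arrays were higher without overlap. The rise was 1.41-fold against LPS alone (difference 0.50, SE 0.14, limma adjusted p = 0.0298), and the difference within inulin was 0.35 (limma adjusted p = 0.133). The call was lost in 4 of 12 fits with 1 array left out (LPS replicate 1, LPS replicate 2, TsSP replicate 1 or TsSP replicate 3, with adjusted p up to 0.106) and after quantile normalization (0.0958). The ratio of Slc36a1 to Slc36a4 rose by 0.39 on the log2 scale (exact permutation p = 0.01, adjusted p = 0.011, n = 6 per side). Its groups overlapped against LPS alone but not within inulin. It was chosen with both rises known, so its p-value is no further support.

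Slc43a2 encodes a carrier that lets large neutral amino acids such as leucine and methionine pass down their gradient. Its log2 signal was 12.14, 12.66 and 12.46 with LPS alone and 13.48, 13.55 and 13.47 with TsSP, and 12.57, 12.53 and 12.51 with inulin and 13.12, 13.69 and 13.52 with both. All TsSP arrays were higher. The rise was 2.12-fold against LPS alone (difference 1.08, SE 0.16, limma adjusted p = 0.000705) and 1.88-fold within inulin (limma adjusted p = 0.00239). Slc43a3, whose product carries purine bases, differed by -0.31 (95% interval -0.56 to -0.066, limma adjusted p = 0.0819).

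The Slc6 family holds sodium- and chloride-driven carriers, best known in nerve tissue, and none of its 5 members above background passed in a TsSP comparison. The taurine carrier Slc6a6 differed by -0.0087 against LPS alone (95% interval -0.30 to 0.28), the creatine carrier Slc6a8 by -0.33 (-0.73 to 0.071) and the glycine carrier Slc6a9 by 0.025 (-0.36 to 0.41). The sign of Slc6a9 turned when arrays were centred on their medians. The betaine carrier Slc6a12 differed by -0.26 (-0.62 to 0.11) and Slc6a17 by -0.22 (-0.71 to 0.27). Within inulin Slc6a8 and Slc6a12 each differed by -0.41. With a mean-variance trend both passed there (limma adjusted p = 0.0191 and 0.0293), and with genes above background only Slc6a12 did (0.0475).

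Set side by side, the TsSP differences of the 26 genes above background had the same sign without and with inulin in 23 (88.5%), where 84.7% of the 9022 genes above background did, and the largest gap between them was 0.215 on the log2 scale. These comparisons used different arrays. The correlation between them over the 26 genes was 0.986, and it was 0.935 over the 9022 genes above background; both describe these arrays and carry no test. In both TsSP comparisons 4 genes were called higher, where 7.28% of all genes were, and 3 lower, where 5.65% were. Averaging the TsSP effect over both inulin states, a choice made after seeing the data, called 15 of the 62 (24.2%), 8 higher and 7 lower, where 25.8% of all genes were called (14.8% higher and 11.0% lower). It added Slc7a6 (higher) and Slc38a7, Slc43a3 and Slc7a6os (lower) to the 10 above background.

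**Figure D3:**
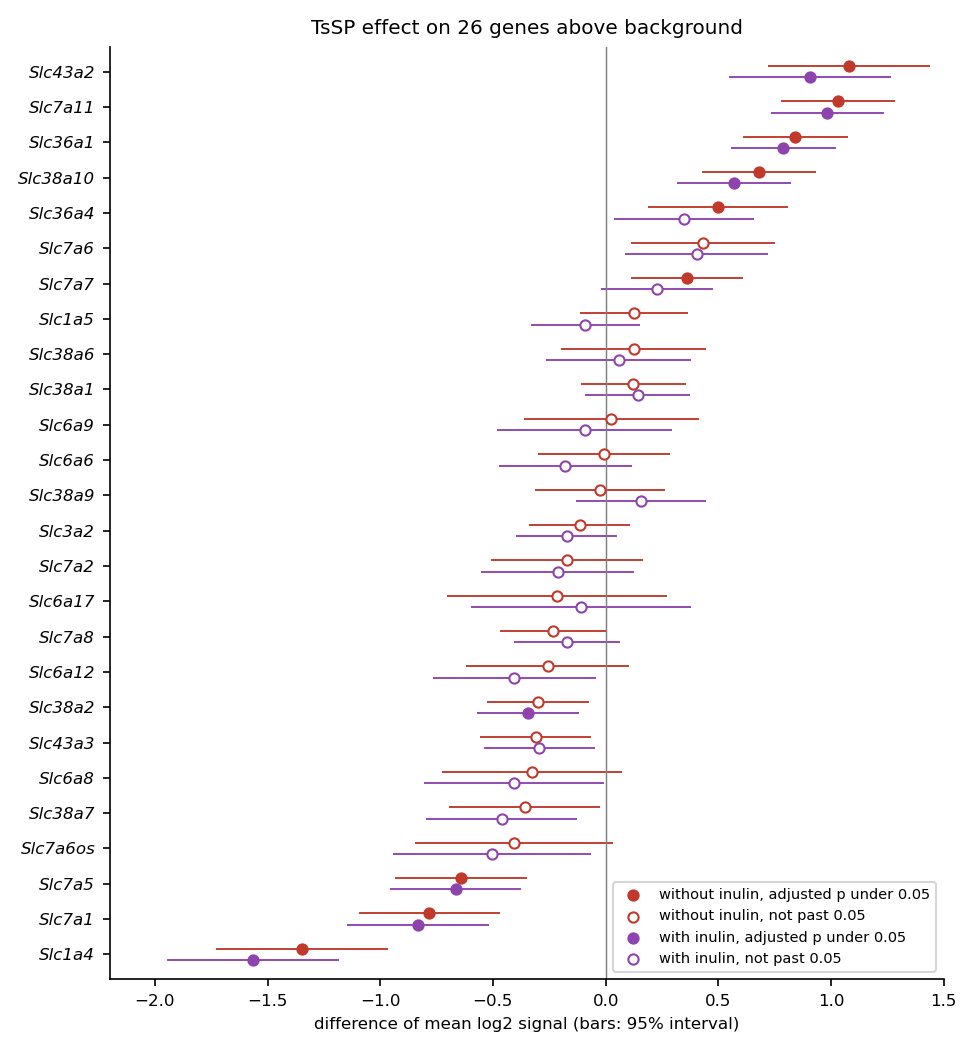
Difference of mean log2 signal with TsSP (horizontal axis) for the 26 genes above background (vertical axis), without inulin in red and with inulin in purple. Bars are 95% intervals and filled points passed an adjusted p of 0.05; Slc43a2 and Slc7a11 lie at the upper end, near 1, and Slc1a4 at the lower end, at -1.35 and -1.56.

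The 36 genes below background on every array had signals of 2.14 to 6.10 and are given no fold. They were Slc1a1, Slc1a2, Slc1a3, Slc1a6 and Slc1a7, which include the glutamate carriers of nerve and glia, Slc3a1, Slc36a2, Slc36a3 and Slc43a1, with Slc38a3, Slc38a4, Slc38a5, Slc38a8 and Slc38a11. From Slc6 they were Slc6a2, Slc6a3, Slc6a4, Slc6a5, Slc6a7, Slc6a11, Slc6a13, Slc6a14, Slc6a15, Slc6a18, Slc6a19, Slc6a20a, Slc6a20b and Slc6a21, among them the noradrenaline, dopamine and serotonin carriers. From Slc7 they were Slc7a3, Slc7a4, Slc7a9, Slc7a10, Slc7a12, Slc7a13, Slc7a14 and Slc7a15. Slc6a13 passed as higher (limma adjusted p = 0.00583) and Slc7a3 as lower (0.046) against LPS alone, and Slc1a1 as lower within inulin (0.0348), but none of these passed in the other TsSP comparison and their levels lay below the background probes.

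Inulin was compared with LPS alone and within TsSP. No carrier passed limma's adjusted threshold in either, nor in the interaction of inulin and TsSP, and no gene of the 19505 did. At an unadjusted p under 0.05, 2 of the 62 differed for inulin against LPS alone (5.86% of all genes did), 3 for inulin added to TsSP (4.98%) and 4 for the interaction (5.58%). Of the 26 above background, the largest difference with inulin alone was 0.38, for Slc7a6os (limma adjusted p = 0.871). Among the 10 carriers that changed with TsSP, the inulin arrays overlapped the LPS arrays in all 10, with differences no larger in size than 0.19. Their interaction terms were no larger than 0.22 in size, with limma adjusted p of 0.982 or more.

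**Figure D4:**
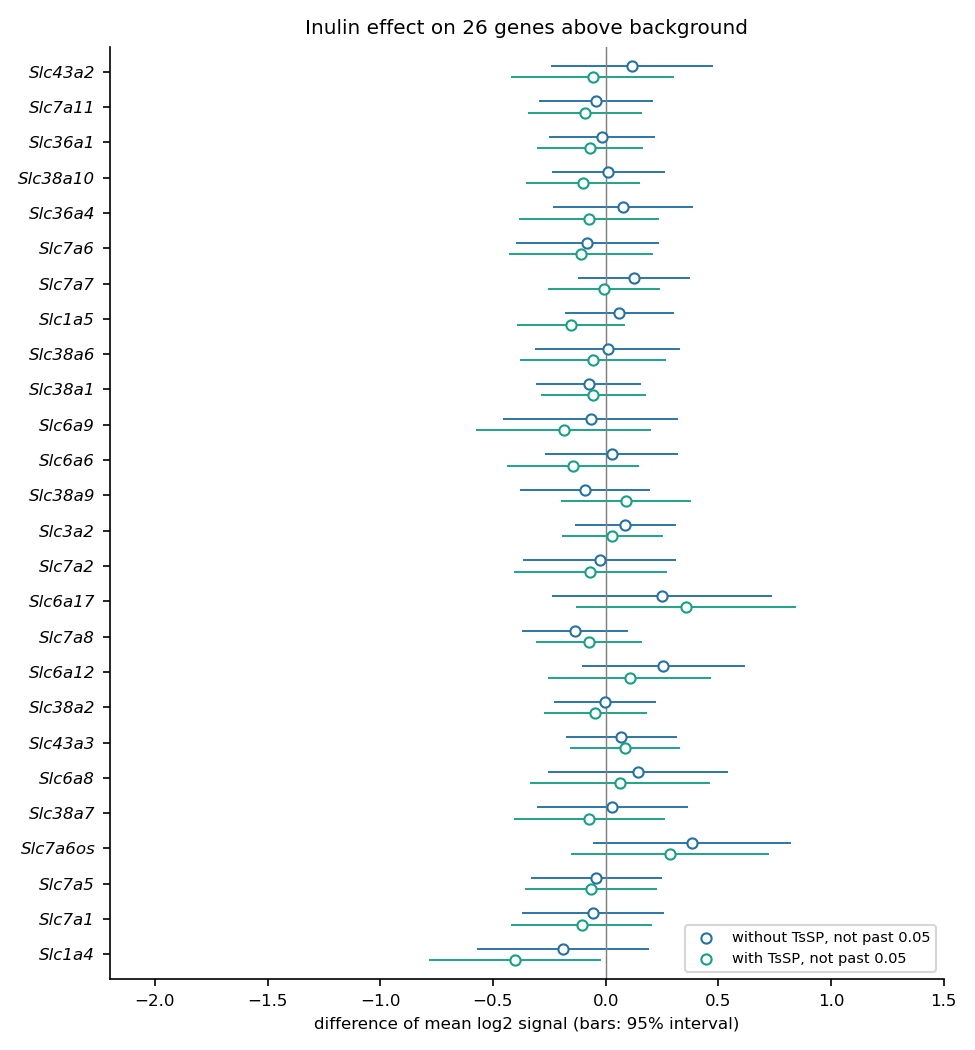
Difference of mean log2 signal with inulin (horizontal axis) for the same 26 genes, without TsSP in blue and with TsSP in green, on the scale of the plot of TsSP differences. Bars are 95% intervals; no point passed an adjusted p of 0.05, and the largest difference is -0.40, for Slc1a4 with TsSP.

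Genes that make, use or sense amino acids were counted in 9 lists, of which 180 of 197 genes were measured and the others are not analysed here. Each count is set beside the share of all genes called in the same direction. The integrated stress response list, the ATF4 pathway to which several carriers belong, had 11 of 23 members lower (7.08% of all genes were) and 3 higher (11.0%) against LPS alone, with a median difference of -0.46 (all genes 0.019). Chac1, which encodes a glutathione-degrading enzyme, fell 4.80-fold. Its mean log2 signal was 11.42 ± 0.060 with LPS alone and 9.16 ± 0.27 with TsSP (SD, n = 3, limma adjusted p = 1.21e-06). Sesn2, a leucine sensor, fell 4.28-fold, the transcription factor genes Atf3 and Ddit3 fell 2.38-fold and 2.30-fold, and Atf4 itself fell 1.37-fold (limma adjusted p = 0.0219). Ddit4, an inhibitor of mTORC1, rose 2.46-fold (limma adjusted p = 0.000193), and Eif2ak3, a kinase that starts the response, rose 2.09-fold (limma adjusted p = 0.00753). Within inulin the difference of Atf4 was -0.34 (limma adjusted p = 0.0898). In that comparison 9 members of the list fell (7.99% of all genes did) and 2 rose (8.66%).

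The aminoacyl-tRNA synthetases of the cytosol, which load amino acids onto tRNA, had 11 of 21 members lower (7.08% of all genes were) and 1 higher (11.0%), with a median difference of -0.38. Vars, the valine enzyme, fell 1.70-fold and Cars, the cysteine enzyme, 1.49-fold, and Qars, the glutamine enzyme, rose 1.39-fold. The number that fell dropped to 8, 6 and 4 without LPS replicates 1, 2 and 3, and to 6, 6 and 4 without TsSP replicates 1, 2 and 3.

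The cysteine and glutathione list had 7 of 20 higher (11.0% of all genes were) and 3 lower (7.08%), and 8 higher (8.66%) and 3 lower (7.99%) within inulin. A link between this list and the rise of Slc7a11 was not tested. Gclm and Gclc, the subunits of the enzyme that starts glutathione synthesis, rose 2.38-fold and 1.77-fold, and the glutathione reductase gene Gsr rose 1.60-fold. Cth, which makes cysteine from cystathionine, fell 1.66-fold, and Chac2 was below background on all 3 TsSP arrays and at least 1.42-fold lower.

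Around arginine, 4 of 16 genes rose (11.0% of all genes did) and 3 fell (7.08%). Odc1, which starts polyamine synthesis, rose 2.01-fold and the spermine oxidase gene Smox 1.85-fold. The inducible nitric oxide synthase gene Nos2, which uses arginine, fell 2.38-fold, and the polyamine acetylase gene Sat1 fell 1.80-fold.

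Other carriers outside the 7 families numbered 20, with 2 higher, a share near the 11.0% of all genes, and 3 lower (7.08% of all genes). Slc66a1, which exports cationic amino acids from lysosomes, rose 2.61-fold. Its mean log2 signal was 9.10 ± 0.21 with LPS alone and 10.48 ± 0.37 with TsSP (SD, n = 3, limma adjusted p = 0.000616). The mitochondrial glutamate carrier Slc25a22 fell 2.84-fold, the aromatic amino acid carrier Slc16a10 2.27-fold and the mitochondrial aspartate and glutamate carrier Slc25a12 1.72-fold.

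The mTORC1 list had 4 of 36 higher, a share near the 11.0% of all genes, and 6 lower (7.08% of all genes). Lamtor4, part of the lysosomal scaffold, rose 2.58-fold, and Castor2, of the arginine sensor family, was above background on 2 of 3 LPS arrays and at least 4.02-fold higher. Mitf, a lysosomal gene regulator, fell 3.09-fold. In the list of branched-chain and tryptophan breakdown 3 of 18 rose (11.0% of all genes did) and 6 fell (7.08%). Bcat2, the mitochondrial branched-chain aminotransferase, rose 2.41-fold, and the tryptophan pathway gene Kynu, above background on 1 of 3 TsSP arrays, was at least 12.0-fold lower.

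Of the glutamine, glutamate and aspartate enzymes 3 of 15 rose (11.0% of all genes did) and 1 fell, near the 7.08% of all genes, with Oat, the ornithine aminotransferase gene, 1.64-fold higher and the asparagine synthetase gene Asns 1.44-fold lower. Of the serine, glycine and one-carbon enzymes 2 of 16 rose, near the 11.0% of all genes, and 2 fell (7.08% of all genes). Gcsh, of the glycine cleavage system, rose 1.93-fold, and the mitochondrial folate enzyme gene Mthfd2 fell 1.32-fold. The falls in this list were 0 or 1 when any of the 6 arrays compared was left out. With inulin, no gene of the 9 lists passed limma's adjusted threshold.

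**Figure D5:**
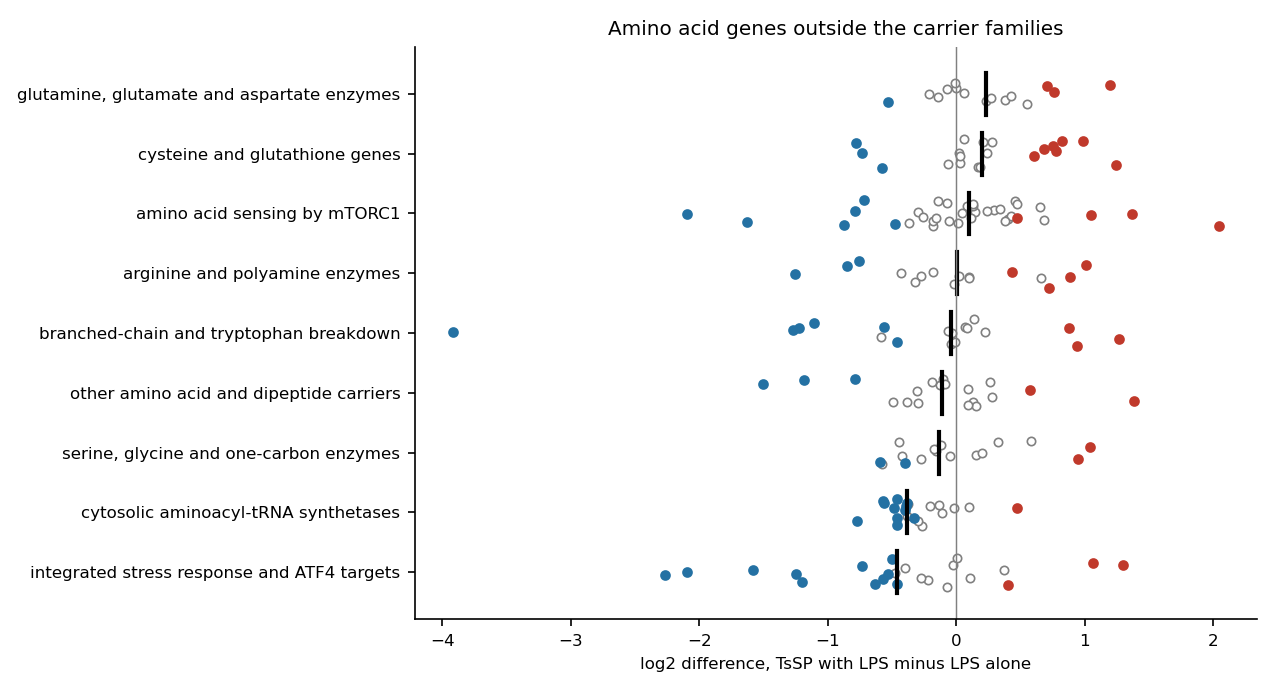
Difference of mean log2 signal between TsSP with LPS and LPS alone (horizontal axis) for every measured gene of the 9 lists (vertical axis, ordered by median). Filled red and blue points passed an adjusted p of 0.05 as higher and lower, open points did not, black bars are list medians and the vertical scatter within a list has no meaning; genes below background are included, and the medians run from -0.46 for the integrated stress response to 0.23 for glutamine, glutamate and aspartate enzymes.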

How the data were processed

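Biotin-labelled total RNA was hybridised to Affymetrix arrays, per the labels. The deposited values are log2 signals, with the base inferred from their range, and the authors' normalization is not given in the sources used here. If that step narrowed the range of signals, the folds here are narrowed too. Of 28846 probe sets, 19572 have 1 gene symbol, and for 55 genes with several the brightest stood for the gene (none of the 62 had several). The values were fitted as deposited in 1 limma model (lmFit and eBayes, limma 3.58.1, R 4.3.3) with 4 group means, 6 contrasts and an F test, with 8 residual and 3.35 prior degrees of freedom. In data simulated for TsSP against LPS alone over 19505 genes, the fit recovered 36.0% of 1.5-fold and 92.0% of 2-fold changes. The simulation changed only 50 genes at each fold, all clearly above background, where 3525 genes passed in the data. With fewer changed genes the adjusted threshold is harder to pass, so these shares do not measure recovery in the data.

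Groups follow the labels. Values on every array are given for genes above background that passed in a contrast. Most list examples are among those with the smallest p in their list, and Ddit4, Eif2ak3, Atf4, Gsr, Chac2 and Qars rank lower. Same-numbered arrays did not deviate together (correlations -0.0445 to 0.0463 over 18 pairs), so no pairing was used. The members, lists and motifs were chosen with earlier results of these data known. Where a gene was below background in the dimmer group, its change is a bound, with the background level or its own signal, whichever was higher, on each dim array. Precision is limited by 3 arrays per group. Plots used matplotlib 3.10.9. Alternatives are in the closing section.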

Additional observations from a re-analysis of the deposited data

How the results depend on the processing

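Slc1a4, Slc36a1, Slc38a10, Slc43a2, Slc7a1, Slc7a11 and Slc7a5 passed in both TsSP comparisons in all 12 fits that left out 1 array and in the 7 other planned settings, and no call in any carrier changed direction. Leaving out 1 array gave 8 to 10 carriers for TsSP against LPS alone (11 with all arrays), 7 to 10 for both agents against LPS alone (8) and 7 to 11 for TsSP added to inulin (9). With genes above background only, TsSP added to inulin called 14 and the F test over the groups 15, against 9 for each as reported, and with a mean-variance trend 15 and 19. For TsSP against LPS alone these settings gave 13 and 16. Carriers that passed in at least 1 of these settings, and not as reported, include Slc7a6, Slc7a8, Slc38a7 and Slc43a3. With the replicate number as a replicate block, TsSP against LPS alone called 9 carriers, where 3203 of all genes were called. TsSP added to inulin called 9 carriers, where 2941 of all genes were called. The latter 9 were with Slc38a7 (limma adjusted p = 0.0309) and without Slc38a2 (0.074). Quantile normalization moved the share of called genes that were higher from 60.8% to 50.9%, and the carriers from 7 higher and 4 lower to 5 and 5. It moved the median of genes above background from 0.11 to 0.0139. Inulin and the interaction gave 0 carriers in every setting run. Precision is limited by 3 arrays per group and by signal over background.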
